A study of Mus musculus with 5 samples.

Results

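The genes described here are the haemoglobin chains of the mouse embryo, with a pair of red cell genes beside them. They are the embryonic globins Hba-x, Hbb-y and Hbb-bh1, the adult-type globins Hba-a1, Hba-a2, Hbb-bs and Hbb-bt, the haem synthesis gene Alas2 and the red cell membrane gene Slc4a1. The 9 genes were chosen by name, all 9 were found among the 19699 entries of the deposited expression table, and all 9 were among the 12838 entries that passed the filter on low values (at least 1 FPKM in at least 2 libraries). FPKM is a read count scaled to the length of the gene and to the depth of the library, so levels of different genes can be set side by side. The tissue was the main airway part of the lung of C57 mouse embryos at E13.5, sequenced as bulk RNA. The 2 mutant libraries carried a loss of Prmt5, an arginine methyltransferase, which the labels call a knockdown and the protocol a knockout specific to lung epithelial cells. The study's design text names Shh beside Prmt5 for the mutant embryos and gives littermates as controls, and the genotype of the 3 control libraries is labelled WT. Whether embryos were pooled is not stated, and the sex-linked genes given below show RNA of both sexes in each control library. The tests thus weigh a difference against library-to-library spread that may be partly technical. The comparison was used as a measure of blood content and of globin switching in tissue whose epithelium, and not whose blood, was the labelled target of the deletion.

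Haemoglobin is built from alpha-type and beta-type chains, each holding a haem group. In the mouse embryo, the first red cells arise in the yolk sac (the primitive lineage) and carry embryonic chains: zeta from Hba-x on the alpha side, and epsilon-y from Hbb-y and beta-h1 from Hbb-bh1 on the beta side. Primitive cells also switch among these genes as they mature in the circulation, with Hbb-bh1 giving way to Hbb-y and Hba-x to the adult alpha genes. Later, red cells from the fetal liver (the definitive lineage) carry the adult-type chains of Hba-a1, Hba-a2, Hbb-bs and Hbb-bt. In whole embryonic lung these transcripts come from blood held in the tissue.

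The globin genes lie in a pair of clusters on GRCm38. The beta-type genes are on the minus strand of chromosome 7, in the order Hbb-y (103851749 to 103853216), Hbb-bh1 (103841637 to 103843164), Hbb-bs (103826534 to 103828096) and Hbb-bt (103812524 to 103813996) along the direction of transcription. The alpha-type genes are on the plus strand of chromosome 11, in the order Hba-x (32276400 to 32278116), Hba-a1 (32283511 to 32284465) and Hba-a2 (32296489 to 32297298). Slc4a1 is also on chromosome 11 (102348824 to 102366203, minus strand), and Alas2 is on the X chromosome (150547375 to 150570638, plus strand). In each cluster the embryonic genes come first.

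The promoters are shown because embryonic and adult genes of a cluster lie side by side and are used in turn during development. RefSeq (GRCm38.p6) gave a promoter for 7 of the 9 genes. Each line gives the 120 bases before the RefSeq start of transcription. The gene extents given above are from GENCODE M21 and begin further upstream for some genes, so the windows of Hba-x, Hba-a1 and Hbb-bs lie inside those extents and the windows of Hbb-y, Hbb-bt and Hba-a2 overlap their edge. Capitals mark CACCC and CCAAT, searched on both strands, and, on the gene's strand, ATAAA or ATAAG (TATA-like letters) beginning 40 to 20 bases before the start. A CCAAT on the other strand reads ATTGG here, and no match in capitals overlapped another.
Hbb-y (chr7:103853208-103853327, minus strand): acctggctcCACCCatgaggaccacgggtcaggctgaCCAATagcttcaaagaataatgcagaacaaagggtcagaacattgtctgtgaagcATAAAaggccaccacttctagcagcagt
Hbb-bs (chr7:103827929-103828048, minus strand): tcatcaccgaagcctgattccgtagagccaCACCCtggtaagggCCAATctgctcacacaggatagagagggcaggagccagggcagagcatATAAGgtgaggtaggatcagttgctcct
Hbb-bt (chr7:103813924-103814043, minus strand): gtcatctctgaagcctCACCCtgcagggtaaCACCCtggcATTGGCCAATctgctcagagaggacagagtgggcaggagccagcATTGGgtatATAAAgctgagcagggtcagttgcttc
Hba-x (chr11:32276480-32276599, plus strand): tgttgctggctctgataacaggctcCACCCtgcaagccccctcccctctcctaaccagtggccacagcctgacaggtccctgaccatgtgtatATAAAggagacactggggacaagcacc
Hba-a1 (chr11:32283552-32283671, plus strand): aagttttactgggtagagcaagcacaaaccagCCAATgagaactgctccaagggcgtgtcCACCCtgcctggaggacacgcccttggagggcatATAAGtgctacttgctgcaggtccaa
Hba-a2 (chr11:32296372-32296491, plus strand): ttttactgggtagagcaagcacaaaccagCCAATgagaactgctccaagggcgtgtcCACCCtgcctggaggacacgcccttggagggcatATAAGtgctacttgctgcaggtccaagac

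All 6 globin promoters printed held CACCC and the TATA-like letters, and all but Hba-x held CCAAT. Among all 32851 promoter windows of this length in the same table, 31.7% held CACCC, 21.3% CCAAT and 6.07% the TATA-like letters, and 0.451% held all 3. GATAA, also searched on both strands and not marked, was present in the windows of Hba-x and Alas2 and in 10.5% of all windows. The Alas2 window held 3 copies of CACCC, all as GGGTG on the gene's strand, and neither CCAAT nor the TATA-like letters. A match of letters is a description of the sequence only.

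The adult genes of each cluster are near-identical copies, which limits what their separate values mean. Hba-a1 and Hba-a2 differed at 1 of 429 coding bases, and their transcripts shared an identical run of 415 bases. Hbb-bs and Hbb-bt differed at 1 of 444 coding bases, with an identical run of 430 bases. The coding stretches around these positions are printed here, with the differing base in capitals (coding bases 361 to 401 of the alpha pair and 397 to 437 of the beta pair, counted from the A of the start codon, from GENCODE M21 transcripts).
Hba-a1: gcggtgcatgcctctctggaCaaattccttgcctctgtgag
Hba-a2: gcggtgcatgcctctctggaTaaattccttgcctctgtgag
Hbb-bs: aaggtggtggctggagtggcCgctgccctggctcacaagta
Hbb-bt: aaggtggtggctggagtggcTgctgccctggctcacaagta

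The sources used here do not give how the authors divided reads between such copies, so the split within each adult pair is uncertain and the pairs are also given as sums. The embryonic genes do not share this limit. Hbb-y and Hbb-bh1 were identical at 76.4% of coding bases with a longest shared run of 26 bases, Hbb-y and Hbb-bs at 74.3% with 22 bases, and Hba-x and Hba-a1 at 62.0% with 18 bases.

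The libraries held 15652503 to 18682463 reads, recovered from the steps between FPKM values. Prmt5 was at 23.7 and 20.1 FPKM in mutant replicates 1 and 2 and at 28.7, 26.4 and 25.8 FPKM in control replicates 1, 2 and 3, so both mutants lay below all controls (limma, log2 change -0.29, SE 0.12, adjusted p = 0.234). Sex make-up moved with genotype: Xist reached 0.0673 and 0.289 FPKM in mutant tissue, against 57.3, 58.1 and 115 FPKM in control tissue, and the Y-linked Ddx3y at 12.0 and 10.8 against 9.91, 6.70 and 2.54 FPKM. Each control library thus held both Xist and Y-linked RNA, so RNA of both sexes, while the mutants held almost no Xist. The tissue label was checked against marker lists. The 9 lung and airway epithelium markers summed to 239 and 249 FPKM in mutant tissue, against 574, 349 and 242 FPKM in control tissue, and Sox2 was the 1 of the 9 that passed (log2 change -2.68, adjusted p = 0.0163). Of 8 lung mesenchyme markers, Tbx4, Fgf10 and Wnt2 passed, all higher in the mutants. The list was mixed: 5 had log2 changes above 0 and 3 below, and its sums overlapped between the groups. In the whole comparison 303 of 12838 genes (2.36%) passed an adjusted p of 0.05 by limma on log2(FPKM + 1), 127 of them higher and 176 lower in the mutants.

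None of the 9 globin and red cell genes passed. The embryonic beta-type globins lay higher in both mutants than in any control, the embryonic alpha-type globin and Alas2 lay lower, and the adult-type globins and Slc4a1 overlapped between the groups. Groups were thus separate for 4 of 9 genes (44.4%), where 37.6% of all genes tested had separate groups. The 2 genes with mutants above stand against 13.2% of all genes, and the 2 with mutants below against 24.4%. An unadjusted p under 0.05 was reached by the same 4 genes, 2 in each direction, against 18.9% of all genes, 6.53% higher and 12.3% lower. Voom on the recovered reads called 1 of the 9, Hbb-y, against 4.7% of all genes. The globins among the 9 genes share a pair of clusters, and all 9 were picked with earlier results known. Nothing is read from these counts alone. The median log2 change of the 9 was -0.26, beside -0.06 for all genes tested. In bulk tissue, fewer red cells and less RNA per red cell cannot be told apart, and this holds for each result below.

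**Figure D1:**
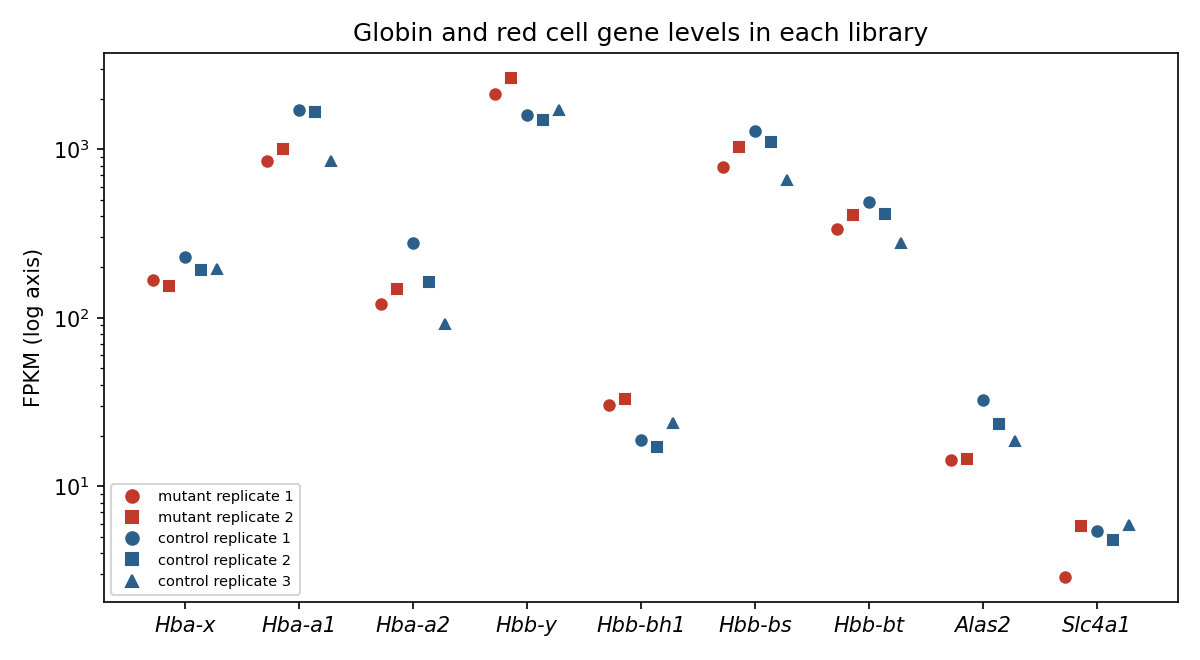
FPKM of each globin and red cell gene in each library, on a log axis; colours mark the genotype and shapes the replicate number. Both mutants lie above all 3 controls for Hbb-y and Hbb-bh1 and below them for Hba-x and Alas2, and control replicate 3 lies with the mutants for Hba-a1.

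Hbb-y, the main embryonic beta-type globin, was the most abundant of the 9 genes in both mutants and in control replicate 3. It was at 2138 and 2651 FPKM in mutant replicates 1 and 2 (22266 and 27429 reads). Controls reached 1593, 1491 and 1715 FPKM (19671, 16071 and 20650 reads). All 3 controls lay close together, and both mutants lay above them. The means were 2394 ± 363 (SD, n = 2) and 1600 ± 112 FPKM (SD, n = 3), so the mutant mean was 49.7% higher. With limma the log2 change was 0.58 (SE 0.16, 95% interval 0.19 to 0.96, adjusted p = 0.118), and with voom on the recovered reads the adjusted p was 0.0468. Quantile normalization, which gives genes of equal rank the same value in every library, left a log2 change of 0.07 (limma, adjusted p = 0.836); Hbb-y was the gene of rank 8 in both mutants and of rank 8, 13 and 7 in the controls.

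Hbb-bh1, the beta-type globin of the earliest primitive red cells, was far lower. It reached 30.3 and 33.0 FPKM in mutant tissue, against 18.8, 17.0 and 23.9 FPKM in control tissue, with 610 mutant and 653 control reads behind these levels. Control replicate 3 was the highest of the controls and still below both mutants. The means were 31.6 ± 1.91 (SD, n = 2) and 19.9 ± 3.56 FPKM (SD, n = 3), a ratio of 1.59, and the log2 change was 0.66 (SE 0.15, 95% interval 0.30 to 1.01, adjusted p = 0.0736 by limma). The call depended on control replicate 3: without it the log2 change was 0.79 and the adjusted p 0.0351. Hbb-y exceeded Hbb-bh1 by 70.6-fold and 80.4-fold in the mutants and by 84.6-fold, 87.8-fold and 71.8-fold in the controls, so the relation between the embryonic beta-type genes overlapped between the groups.

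Hba-x, the embryonic alpha-type globin, did not go the way of its beta-type partners. It reached 167 and 154 FPKM in mutant tissue, against 229, 193 and 195 FPKM in control tissue, and both mutants lay below all 3 controls. The means were 161 ± 8.94 (SD, n = 2) and 206 ± 20.2 FPKM (SD, n = 3), a ratio of 0.782. The log2 change was -0.35 (SE 0.12, 95% interval -0.64 to -0.06, adjusted p = 0.184 by limma), so the difference did not pass. The ratio of Hbb-y to Hba-x, both genes of the primitive lineage, was 12.8 and 17.2 in the mutants and 6.96, 7.72 and 8.81 in the controls. That ratio was chosen after the values were seen and was not tested.

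Hba-a1, the more abundant entry of the adult alpha pair, was at 847 and 1003 FPKM in the mutants. In the controls it was at 1717, 1658 and 849 FPKM, so control replicate 3 lay with the mutants and the groups overlapped. The means were 925 ± 110 (SD, n = 2) and 1408 ± 485 FPKM (SD, n = 3), and the log2 change was -0.54 (SE 0.31, 95% interval -1.26 to 0.17, adjusted p = 0.396 by limma). Without control replicate 3 the log2 change was -0.87 and the adjusted p 0.0400, so this library decided the call.

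Its near-identical copy Hba-a2 was lower and spread more widely. It reached 121 and 148 FPKM in mutant tissue, against 278, 163 and 91.6 FPKM in control tissue (limma, log2 change -0.26, SE 0.40, adjusted p = 0.796). Hba-a1 exceeded Hba-a2 by 6.17-fold to 10.2-fold over the 5 libraries. As a sum, the pair was at 969 and 1151 FPKM in mutant tissue, against 1996, 1821 and 941 FPKM in control tissue. The groups of the sum overlapped through control replicate 3 (limma, log2 change -0.51, SE 0.32, adjusted p = 0.443).

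Hbb-bs, the more abundant entry of the adult beta pair, reached 783 and 1028 FPKM in mutant tissue, against 1284, 1112 and 657 FPKM in control tissue. The mutants lay inside the range of the controls, and the log2 change was -0.13 (SE 0.29, 95% interval -0.80 to 0.55, adjusted p = 0.870 by limma). Hbb-bt reached 335 and 406 FPKM in mutant tissue, against 489, 414 and 276 FPKM in control tissue (limma, log2 change -0.05, SE 0.24, adjusted p = 0.938). The pair moved together across libraries: Hbb-bs exceeded Hbb-bt by 2.33-fold to 2.68-fold. As a sum, the pair was at 1118 and 1433 FPKM in mutant tissue, against 1773, 1526 and 933 FPKM in control tissue, and the log2 change was -0.11 (SE 0.28, 95% interval -0.75 to 0.54, adjusted p = 0.889 by limma).

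Alas2 encodes the red cell form of the first enzyme of haem synthesis. It reached 14.3 and 14.6 FPKM in mutant tissue, against 32.7, 23.6 and 18.5 FPKM in control tissue, so both mutants lay below all controls. The means were 14.4 ± 0.180 (SD, n = 2) and 24.9 ± 7.16 FPKM (SD, n = 3), a ratio of 0.580, and the log2 change was -0.71 (SE 0.21, 95% interval -1.20 to -0.22, adjusted p = 0.130 by limma). Alas2 is X-linked, and the X-linked Xist was near 0 in both mutants. With Ddx3y as a measure of the male share in the model, the log2 change of Alas2 was -1.22 (limma, adjusted p = 0.0276). The same covariate moved the adult-type globins too, with none past the threshold: the log2 change was -1.21 for Hba-a1 (limma, adjusted p = 0.0907), -1.28 for Hba-a2 (0.0517), -0.74 for Hbb-bs (0.301) and -0.58 for Hbb-bt (0.321). Xist and Ddx3y each separated the groups, so sex and genotype cannot be told apart in these 5 libraries. Within groups Ddx3y varied mainly among the controls, where it fell in the same replicate order as Alas2. The covariate's fit rests largely on that order and does not remove the effect of sex. The part of sex in these differences was not otherwise tested.

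Slc4a1, the anion exchanger band 3 of the red cell membrane, was the lowest of the 9 genes. It reached 2.89 and 5.83 FPKM in mutant tissue, against 5.42, 4.76 and 5.91 FPKM in control tissue, so mutant replicate 1 stood below the other libraries and the groups overlapped (limma, log2 change -0.30, SE 0.23, adjusted p = 0.550). Without mutant replicate 1 the log2 change was 0.10. The same library had the lowest fetal liver marker sum (6.88 FPKM, against 43.8 in mutant replicate 2 and 10.2, 19.2 and 21.5 in the controls) and the lowest level of the neutrophil gene S100a8 (0.549 FPKM, against 4.24 to 6.80 in the others). Their part in the Slc4a1 values was not tested.

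**Figure D2:**
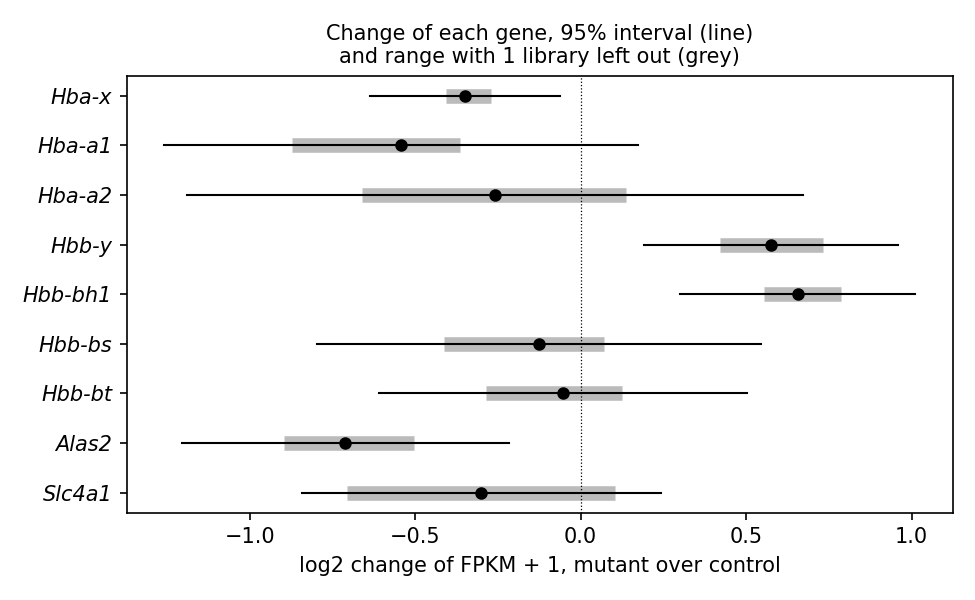
Log2 change of FPKM + 1, mutant over control, for each of the 9 genes; points are limma estimates, black lines 95% intervals and grey bars the range of estimates with 1 library left out at a time. The grey bars of Hba-x, Hba-a1, Hbb-y, Hbb-bh1 and Alas2 stay on 1 side of 0, and those of Hba-a2, Hbb-bs, Hbb-bt and Slc4a1 cross it.

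The blood content of the tissue was read from the sum of the 7 globin genes. It was 4422 and 5423 FPKM in mutant tissue, against 5610, 5048 and 3808 FPKM in control tissue, and the groups overlapped over most of their range. The means were 4923 ± 708 (SD, n = 2) and 4822 ± 922 FPKM (SD, n = 3), a log2 ratio of 0.03 (exact permutation test over the 5 libraries, two-sided, p = 1; smallest p possible 0.1). Globin reads were 0.327% and 0.400% of library reads in the mutants and 0.431%, 0.388% and 0.284% in the controls. The exact binomial 95% intervals of these shares were narrow (0.324% to 0.330% in mutant replicate 1), so counting error was small beside the spread between libraries. Intervals cover counting error only.

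Alpha-type and beta-type globins made up this sum in different proportions. Beta-type globins summed to 3286 and 4117 FPKM in mutant tissue, against 3385, 3034 and 2672 FPKM in control tissue. Alpha-type globins summed to 1136 and 1306 FPKM in mutant tissue, against 2224, 2014 and 1136 FPKM in control tissue. The ratio of alpha-type to beta-type FPKM was 0.346 and 0.317 in the mutants and 0.657, 0.664 and 0.425 in the controls. Both mutants lay below all controls. This ratio was chosen after its values were seen and was not tested.

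Globin switching was read from the embryonic share of each chain type, which is a ratio within a library. Of beta-type FPKM, Hbb-y and Hbb-bh1 made up 66.0% and 65.2% in the mutants and 47.6%, 49.7% and 65.1% in the controls. Mutants lay above controls, but control replicate 3 lay just below mutant replicate 2 and far from the other controls. The means were 65.6 ± 0.559% (SD, n = 2) and 54.1 ± 9.53% (SD, n = 3), a difference of 11.5 percentage points (exact permutation test, two-sided, p = 0.2, adjusted over 5 measures of blood 0.5). The difference was 8.20 to 16.9 percentage points with 1 library left out at a time. With Hbb-bs as the only adult gene counted, since the split of the pair is uncertain, it was 11.0 percentage points (exact permutation test, two-sided, p = 0.3). The groups then overlapped, as did the ratio of Hbb-y to Hbb-bs, at 2.73 and 2.58 in the mutants and 1.24, 1.34 and 2.61 in the controls.

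Of alpha-type FPKM, Hba-x made up 14.7% and 11.8% in the mutants and 10.3%, 9.59% and 17.1% in the controls. The groups overlapped, and control replicate 3 had the highest share of all 5 libraries (difference 0.929 percentage points, exact permutation test, two-sided, p = 0.9, adjusted 1). Control replicate 3 was thus the library with the least adult globin and the highest embryonic share on the alpha side. Within the embryonic beta-type pair, Hbb-bh1 made up 1.40% and 1.23% in the mutants and 1.17%, 1.13% and 1.37% in the controls, again overlapping (difference 0.0905 percentage points, exact permutation test, two-sided, p = 0.5, adjusted 0.833). Control replicate 3 also had the highest cardiac muscle marker sum (1480 FPKM, against 197 to 527 in the other libraries), the highest Xist and the lowest Ddx3y. The part of these in its globin composition was not tested.

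**Figure D3:**
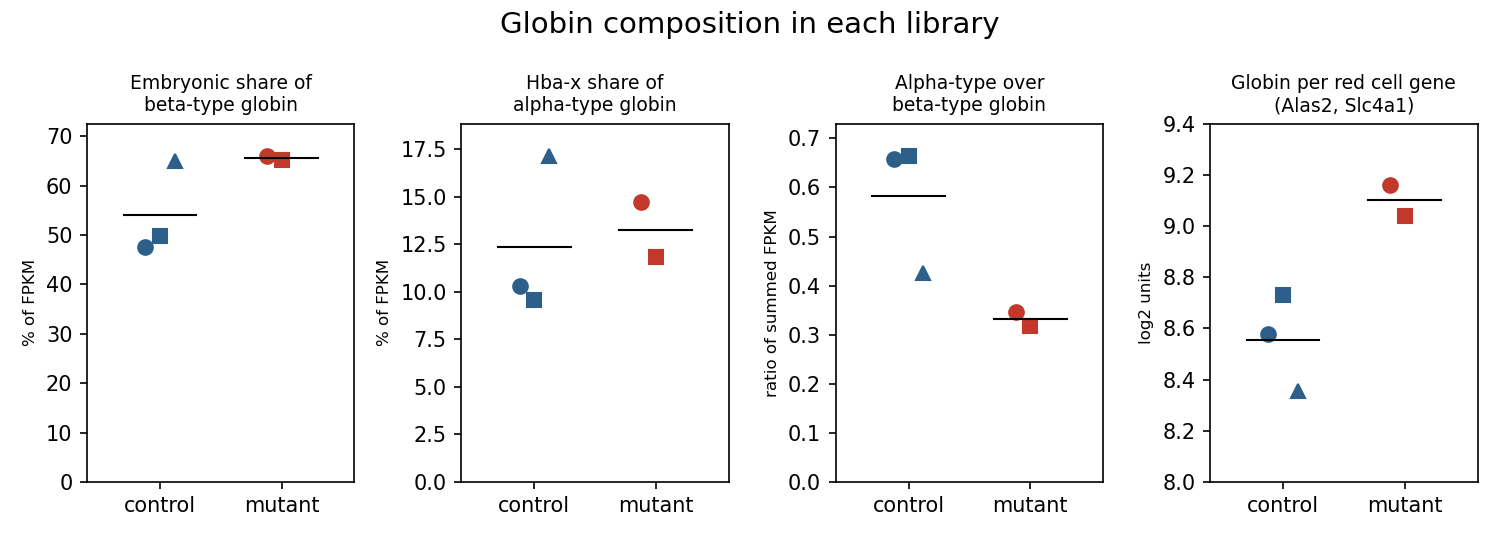
Embryonic share of beta-type globin and Hba-x share of alpha-type globin (% of FPKM), the ratio of alpha-type to beta-type FPKM, and summed globin per red cell gene (log2 units, axis not from 0), by genotype; points are libraries, shapes replicate numbers and bars group means. Control replicate 3 (triangle) lies with the mutants at 65.1% embryonic beta-type globin, while both mutants lie below all controls in the alpha to beta ratio.

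Globin RNA was also set against the other red cell genes of the group. The log2 of summed globin FPKM minus the mean log2(FPKM + 1) of Alas2 and Slc4a1 was 9.16 and 9.04 in the mutants and 8.58, 8.73 and 8.36 in the controls. The groups did not overlap, and the difference was 0.55 log2 units (exact permutation test, two-sided, p = 0.1, the smallest possible, adjusted 0.5). Against the mean of the 18 tested genes of a wider red cell list, the difference was 0.10 (exact permutation test, p = 0.8), so the separation rested on Alas2 and Slc4a1. Per 1000 FPKM of adult beta-type globin, Alas2 reached 12.8 and 10.2 FPKM in mutant tissue, against 18.4, 15.4 and 19.8 FPKM in control tissue.

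The globins differed in how they varied over the 5 libraries. Pearson correlations of log2(FPKM + 1) with the mean of the 7 globins were 0.99 for Hbb-bt, 0.97 for Hbb-bs, 0.96 for Hba-a2 and 0.77 for Hba-a1. They were 0.57 for Alas2, 0.30 for Hba-x, 0.17 for Slc4a1, -0.04 for Hbb-y and -0.29 for Hbb-bh1. Each globin is itself part of that mean, and the near-identical adult pairs make up most of it. High values of the adult genes are thus partly built in, and the order of the globins is a description only. Hbb-y and Hbb-bh1 followed each other (0.95), as did Hbb-bs and Hbb-bt (0.99) and Hba-x and Alas2 (0.94), while Hbb-y and Hba-x ran opposite (-0.87). These describe 5 libraries that include both genotypes, and each library's depth and scaling enter every gene alike. Among 4262 other genes whose levels spanned at least 0.5 log2 units, those closest to the globin mean included Tet1 (0.98), Hnrnph3 (0.97), Lurap1l (0.97), Crb3 (0.96), Zmpste24 (0.96) and Trim29 (0.96), and 34 had a correlation above 0.9.

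The remaining globin genes were low. The beta-cluster pseudogene Hbb-bh0 reached 4.43 and 5.45 FPKM in mutant tissue, against 4.15, 6.18 and 7.23 FPKM in control tissue, and Hbb-bh2 had 5 reads over the controls and 0 over the mutants. The theta-type genes of the alpha locus stayed near the detection limit. Over the 2 mutant and the 3 control libraries, Hbq1a had 9 and 9 reads (means 0.473 and 0.276 FPKM). Hbq1b had 9 and 30 reads (means 0.396 and 0.788 FPKM). Myoglobin (Mb), the oxygen store of heart and skeletal muscle, had 7 mutant and 81 control reads over the same libraries (means 0.178 and 1.19 FPKM). Of 10 cardiac muscle markers, 2 (Actn2 and Actc1, which skeletal muscle also expresses) were lower in both mutants than in any control. Of all genes tested, 24.4% were so. The other 8 overlapped, among them the heart genes Myl7 (98.2 and 286 against 149, 147 and 623 FPKM) and Myh6 (12.4 and 21.4 against 16.5, 9.43 and 88.1 FPKM). The nerve cell globin Ngb reached 2.03 and 3.37 FPKM in mutant tissue, against 1.74, 1.21 and 1.24 FPKM in control tissue (limma, log2 change 0.61, SE 0.21, adjusted p = 0.177). Cygb, expressed in fibroblast-like cells, was at 4.96 and 5.10 FPKM against 3.97, 4.97 and 4.45 FPKM.

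No gene of the wider red cell list passed. The list held 30 membrane, enzyme and receptor genes of red cells, of which 29 were in the table and 18 were tested. None was called by limma, 4 had an unadjusted p under 0.05 (2 higher, 2 lower; 18.9% of all genes), voom called 3 (4.7% of all genes), and the median log2 change was -0.07, beside -0.06 for all genes. Bpgm, which makes the haemoglobin effector bisphosphoglycerate, reached 10.5 and 9.94 FPKM in mutant tissue, against 17.4, 14.9 and 14.2 FPKM in control tissue (limma, log2 change -0.55, SE 0.12, adjusted p = 0.0670). Dmtn, a protein of the membrane skeleton, was at 2.59 and 1.90 against 4.26, 3.54 and 4.51 FPKM. Carbonic anhydrase Car2 went the other way, at 50.0 and 61.1 against 22.7, 39.6 and 24.9 FPKM (limma, log2 change 0.95, SE 0.23, adjusted p = 0.0826), as did the water channel Aqp1, at 21.6 and 19.7 against 13.6, 17.1 and 17.1 FPKM. Other lung cells also express Car2 and Aqp1.

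All 15 further genes of haem synthesis and its transport were tested, and none passed by limma or voom. Of these, 1 (Fech) had an unadjusted p under 0.05 (18.9% of all genes), and the median log2 change was -0.06. Fech, the enzyme that inserts iron into haem, reached 16.9 and 17.1 FPKM in mutant tissue, against 22.1, 21.1 and 21.7 FPKM in control tissue, and the mutants lay below all controls (limma, log2 change -0.33, SE 0.10, adjusted p = 0.129). Alas1, the form of the first enzyme used outside red cells, was at 10.5 and 9.15 against 11.8, 11.2 and 12.0 FPKM. Alad, the next enzyme, was at 24.6 and 23.0 against 17.0, 22.0 and 19.2 FPKM. Over the 15 genes, mutants lay below all controls for 3 and above them for 1, where 24.4% and 13.2% of all genes did so.

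Of 28 globin regulators listed, 27 were in the table and 20 were tested, and none passed by limma. An unadjusted p under 0.05 was reached by 2, both lower in the mutants (12.3% of all genes), and the median log2 change was -0.08. Ikzf1, a zinc finger factor of blood cells, reached 0.846 and 0.918 FPKM in mutant tissue, against 2.12, 1.38 and 1.51 FPKM in control tissue (limma, log2 change -0.50, SE 0.19, adjusted p = 0.210). Myb, a factor of blood progenitors, was at 0.465 and 0.515 against 2.20, 0.959 and 1.07 FPKM (limma, log2 change -0.66, SE 0.25, adjusted p = 0.217). Bcl11a, a repressor of embryonic beta-type globins in definitive red cells, was at 2.61 and 2.08 against 3.34, 2.87 and 3.30 FPKM (limma, log2 change -0.32, SE 0.15, adjusted p = 0.293). Over the 20 tested regulators, mutants lay below all controls for 4 (these 3 and Nr2c2) and above them for 2, the repressor Zbtb7a (8.21 and 7.30 against 6.88, 6.49 and 6.84 FPKM) and the DNA methyltransferase Dnmt1 (47.3 and 45.6 against 44.8, 41.4 and 43.3 FPKM), where 24.4% and 13.2% of all genes did so. Atrx, a chromatin remodeller that acts at the alpha globin genes, overlapped at 10.9 and 11.0 against 17.3, 10.7 and 13.8 FPKM. Gata1 and Klf1, the activator of adult beta-type globin, were too low to test. Gata1 had 42 reads over the 2 mutant and 31 over the 3 control libraries, with means of 0.549 and 0.245 FPKM. Klf1 had 42 and 72 reads, with means of 0.872 and 0.886 FPKM. Tal1, Lmo2, Ldb1 and Zfpm1 were tested and overlapped between the groups, with log2 changes of 0.02, 0.07, 0.10 and 0.15 (limma). Bcl11a and Atrx are also expressed outside blood, so whole tissue values do not describe red cells alone.

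Haemoglobin released from red cells is bound by haptoglobin and broken down by haem oxygenases. Of 12 such clearance genes 10 were tested, and none passed by limma (1 with an unadjusted p under 0.05, reached by 18.9% of all genes). Hp, haptoglobin, reached 0 and 0.714 FPKM in mutant tissue, against 2.95, 2.42 and 1.63 FPKM in control tissue, from 15 and 167 reads (limma, log2 change -1.33, SE 0.28, adjusted p = 0.0593). Hmox1, the inducible haem oxygenase, was at 19.2 and 17.8 against 14.7, 16.8 and 17.5 FPKM, and Hmox2 at 29.7 and 31.2 against 27.9, 28.6 and 25.6 FPKM. Both mutants lay above all controls for each oxygenase, by log2 changes of 0.17 and 0.15. They lay below all controls for the haem transporter Slc48a1 (13.4 and 13.0 against 16.3, 14.5 and 14.5 FPKM). Over the 10 tested clearance genes, mutants lay above all controls for 4 and below them for 2. Of all genes tested, 13.2% and 24.4% did so.

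Markers of other blood and vessel cells were read beside the globins. None of 8 tested platelet genes passed by limma. Pf4 reached 15.1 and 19.9 FPKM in mutant tissue, against 8.83, 13.0 and 11.3 FPKM in control tissue, above all controls (limma, log2 change 0.62, SE 0.18, adjusted p = 0.125). Mutants lay above all controls for 2 of the 8 platelet genes, as for 13.2% of all genes. None of 15 tested macrophage and leukocyte genes passed, and their list summed to 164 and 157 FPKM against 113, 154 and 142 FPKM, both mutants above all controls. Log2 changes in this list ran from -1.04 to 0.78, 11 above 0 and 4 below. Both mutants lay above all controls for 4 of the 15, where 13.2% of all genes did so. The largest rise was that of Tyrobp, a signalling adaptor of myeloid cells, at 18.0 and 18.6 against 6.98, 15.1 and 10.1 FPKM. None of 12 endothelial genes passed, and their sums overlapped (234 and 194 against 163, 224 and 240 FPKM). Unadjusted p-values under 0.05 numbered 1, 1 and 0 in these 3 lists, where 18.9% of all genes tested had one. No defining marker of these lists was at 0 in every library.

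Markers of neighbouring organs also varied between the sections. Fetal liver is the main source of definitive red cells at this stage, and its marker Alb reached 0.759 and 16.7 FPKM in mutant tissue, against 3.63, 2.54 and 5.72 FPKM in control tissue. Mutant replicates were thus the lowest and the highest library. Cardiac muscle genes, with a median log2 change of -0.56, had sums of 197 and 527 FPKM in mutant tissue, against 500, 387 and 1480 FPKM in control tissue, and none of 10 passed by limma, 2 with an unadjusted p under 0.05. None of the 6 tested liver genes passed, 1 with an unadjusted p under 0.05. Over all genes tested, the share with such a p was 18.9%. The part of liver or heart tissue in the globin values was not tested.

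**Figure D4:**
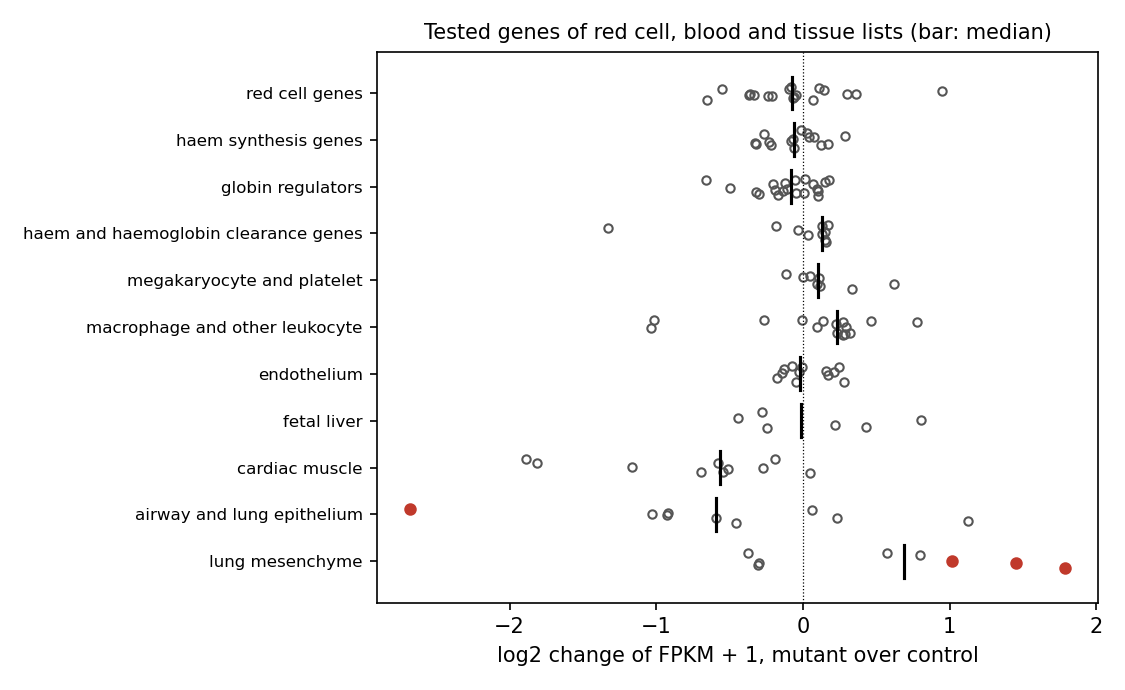
Log2 change of FPKM + 1, mutant over control, for each tested gene of the red cell, haem, regulator, clearance, blood, vessel and neighbouring tissue lists; open circles did not pass limma at an adjusted p of 0.05, filled circles passed and bars are medians. The 4 that passed are Sox2 in epithelium and Tbx4, Fgf10 and Wnt2 in mesenchyme; the red cell, haem and regulator lists centre near 0.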

How the data were processed

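Bulk RNA-seq of 2 mutant and 3 control libraries was used, with groups and replicate numbers taken from the titles and genotype labels. The deposited table gave FPKM per gene symbol, a unit taken from the name of the table; the authors' build was GRCm38 (mm10), per the submitters' processing notes, and for their aligner, counter, annotation and strand setting nothing is given in the sources used here. RNA libraries were made with a SMARTER kit, per the labels' protocols. Low FPKM values step by whole reads, which gave read numbers for 100% of entries (tolerance 1e-06 reads), with 97.5% to 97.6% of library reads in entries.

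Genes with at least 1 FPKM in at least 2 libraries were tested with limma 3.58.1 in R 4.3.3 (trend, two-sided) on log2(FPKM + 1), with Benjamini-Hochberg adjustment over 12838 genes and a threshold of 0.05; fold changes on this scale understate those of low genes. Composition measures used exact permutation tests (Python 3.11.15, scipy 1.17.1). The scripts were tested on simulated data. Members and lists were chosen with earlier results of these data known. All 9 members were named, with the 4 tested genes of smallest p in each list as candidates for naming and the 8 genes closest to the globin mean. S100a8, Alb, Myl7, Myh6, Nr2c2, Zbtb7a, Dnmt1, Gata1, Klf1, Tal1, Lmo2, Ldb1, Zfpm1, Mb and the other low globins were named after their values were seen. Some genes that the rule names are not reported here. The alternatives tried were other pseudocounts, filters, scalings, voom, Ddx3y as a covariate, the replicate block, each library left out, and summed adult pairs, the last added after seeing the data.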

Additional observations from a re-analysis of the deposited data

How the results depend on the processing

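The 303 genes past the threshold became 69 without a filter, 603 with voom and 192 with Ddx3y as a covariate, and 12 to 308 with 1 library left out; the lowest counts were 21 without mutant replicate 1 and 12 without mutant replicate 2. Calls split 127 higher and 176 lower, against 133 and 117 after quantile normalization and 112 and 277 as TPM without Gm23935, an entry that took 7.69% to 64.8% of summed FPKM. Of the 9 globin and red cell genes, 0 passed, against 1 with voom (Hbb-y), 1 with the covariate (Alas2) and 0 to 2 with 1 library left out, the 2 being Hba-a1 and Hbb-bh1 without control replicate 3. The red cell list had 0 calls, against 1 with a filter of 5 FPKM, 1 as TPM, 3 with voom and 0 to 1 with 1 library left out; the clearance list had 0 to 1. Summing the adult pairs, chosen after seeing the data, called 0.

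The log2 changes of Hba-x, Hba-a1, Hbb-y, Hbb-bh1 and Alas2 kept their sign in all alternatives run. With 1 library left out, Hba-a2 ranged from -0.66 to 0.14, Hbb-bs from -0.41 to 0.0701, Hbb-bt from -0.29 to 0.12 and Slc4a1 from -0.71 to 0.10, and Hbb-bt was 0.0324 with median ratio scaling. With Ddx3y as a covariate they lay below these ranges, apart from Slc4a1 (-0.13): Hba-a2 was -1.28, Hbb-bs -0.74 and Hbb-bt -0.58. The log2 ratio of summed globin turned from 0.03 to -0.0171 on recovered reads and -0.0400 as TPM, and ranged from -0.125 (mutant replicate 2 left out) to 0.170 with 1 library left out, being also below 0 at -0.114 with control replicate 3 left out. The difference in the embryonic alpha-type share ranged from -0.514 (mutant replicate 1 left out) to 3.33 percentage points (control replicate 3 left out), and was -0.0974 and -0.445 with control replicates 1 and 2 left out. The cause was not tested.

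Replicate numbers gave no sign of pairing: deviations of same-numbered libraries correlated at -0.0671 and 0.0203. With the replicate block, which gives control replicate 3 no partner, 259 genes passed and 1 of the 9, Hba-a1 (limma, log2 change -0.87, adjusted p = 0.0419). Summed globin was then -0.12. Leaving out a mutant leaves 1 library in that group, whose spread is assumed to be that of the controls. Depth limits the low factors and globins, some of which had few or no reads in a library.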
